A study of Mus musculus with 2 samples.

Results

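The LAR-type (leukocyte common antigen-related) receptor tyrosine phosphatases Ptprd, Ptprs and Ptprf were examined as a family of 3 genes in maps of N6-methyladenosine (m6A) of the newborn mouse brain. The family was chosen by name from the 16131 genes that held a listed site in either map, with earlier site counts of these data known, so the number of sites per member is a description and not a test. Its sites were all listed positions inside the GENCODE interval of a member on the strand of the gene. By that rule the family held 195 of the 79355 sites of the cerebellum and 880 of the 188295 sites of the cerebrum, which made 1011 of 219409 different positions. The 2 libraries were made from poly(A)+ RNA of a female F1r hybrid at postnatal day 0, 1 from the cerebellum and 1 from the cerebrum. F1r is the cross of a C57BL/6J mother with a PWK/PhJ father, so both libraries carried a C57 and a PWK allele, and no other treatment or allele separated them. Per the methods of the study, both RNA samples came from 1 mouse, so the libraries also shared an animal.

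LAR-type phosphatases are single-pass membrane proteins of axons and presynaptic terminals, with immunoglobulin and fibronectin type III domains outside the cell and tandem phosphatase domains inside it. On the outside they bind the postsynaptic adhesion proteins of the Slitrk, Lrfn and Il1rapl families, Ntrk3 (TrkC) and Lrrc4b (NGL-3), as well as the heparan sulfate chains of glypicans and syndecans. On the inside they recruit liprins and Trio, and short alternative exons in the outer part tune which partner is bound. m6A is set on nascent RNA by the Mettl3 and Mettl14 methyltransferase, mainly at adenosines in the 5-mer DRACH (where D stands for any base but C, R for a purine and H for any base but G), and is known to be rich in long internal exons and around stop codons.

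GLORI (glyoxal and nitrite-mediated deamination) turns unmethylated adenosines into inosines, which are read as G, so that an adenosine still read as A marks m6A at single-base resolution. The deposited lists held the position and strand of each site that had passed the filters of the study (more than 8 reads and a rate of methylation over 0.1), but gave neither rates nor reads per site. The depth at each position was therefore unknown, and an adenosine absent from a list may be unmethylated, thinly covered or not expressed. With 1 library per tissue there was no replicate, and no difference between the tissues was tested. The 95% Wilson intervals given below cover counting over sites only and treat neighbouring sites as independent.

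The tissue of each list was taken from the GEO record, since the name given to the cerebrum list also carries the abbreviation that the study uses for the cerebellum, and was set against marker genes by their listed DRACH sites. En1, En2 and Barhl1, transcription factors of the hindbrain, held 5, 8 and 11 in the cerebellum but 0 in the cerebrum. Cbln1, the hindbrain list gene with most sites, went the other way with 11 and 15, as did Gbx2 with 1 and 2. Of 14 genes in each list, 7 hindbrain genes had a site in the cerebellum and 2 in the cerebrum, and 5 forebrain genes had a site in the cerebellum and 13 in the cerebrum. The Purkinje cell gene Pcp2 and the granule cell precursor gene Atoh1 had 0 in both. Of 10 genes of blood, vessels, connective tissue and microglia, 2 had a site in the cerebellum and 4 in the cerebrum. In bulk tissue, fewer cells of a type and less RNA per cell cannot be told apart.

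The coding regions of the members shared 1 listed position, and its sequence is shown first because it was the only aligned codon at which more than 1 member had a listed DRACH site. The windows run 5′ to 3′ along the transcript in GRCm38, and the capitals mark the 5-mer with the listed adenosine at its centre.
Ptprd, exon 11, chr4:76128987-76129007, minus strand: ctaacatgGGACTctgggaat
Ptprs, exon 8, chr17:56436112-56436132, minus strand: gtcacatgGGACTcgggcaac
Ptprf, exon 9, chr4:118236415-118236435, minus strand: ctgacatgGGACTctggaaat
All 3 adenosines were listed in both libraries. Each was the second base of its codon, codon 344 of Ptprd and codon 340 of Ptprs and of Ptprf, and each lay 70 nt from the nearest junction of an exon of 582 nt. The 3 windows had 16 of 21 bases alike, among them a run of 11 nt that holds the 5-mer.

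Sequence alike between paralogs can let a short read be placed in more than 1 gene, so the surroundings of the shared position were compared. In the 201 nt of spliced transcript around it, the reference sequences of Ptprd and Ptprs were 70.1% identical, those of Ptprd and Ptprf 65.7% and those of Ptprs and Ptprf 64.2%. The longest run alike was 14, 14 and 11 nt. It became 17, 21 and 14 nt when every A was read as G, as most are after the treatment. The part of read placement in the listing was not tested. The same run of 11 nt stood around a GGACT adenosine in 21 coding genes, the members included. Of those 21 adenosines, 4 were listed in the cerebellum and 6 in the cerebrum. Both counts include the 3 members, which defined the run and were picked as listed. Over all coding genes with a site, 16.4% and 23.5% of GGACT adenosines were listed. These shares leave out genes without a site, whereas the 21 were counted in all coding genes, so the sets are unlike.

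Ptprd (ENSMUSG00000028399) lies on chromosome 4 from 75941238 to 78211961, on the minus strand, and spans 2270 kb. Its reference isoform, the longest complete coding isoform Ptprd-206, has 36 exons and 9899 nt, of which 3720 nt are 3′ UTR. Ptprs (ENSMUSG00000013236) lies on chromosome 17 from 56412426 to 56476483, on the minus strand, and spans 64.1 kb, with a reference isoform of 33 exons, 6855 nt and 892 nt of 3′ UTR. Ptprf (ENSMUSG00000033295) lies on chromosome 4 from 118208213 to 118291405, on the minus strand, and spans 83.2 kb, with a reference isoform of 33 exons, 7656 nt and 1608 nt of 3′ UTR. The coding regions were of nearly one length in the 3 genes, 5739, 5724 and 5697 nt, so the members differed mainly in their introns and 3′ UTRs. Their proteins of 1912, 1907 and 1898 residues were 72.0% identical between Ptprd and Ptprs, 70.8% between Ptprd and Ptprf and 67.3% between Ptprs and Ptprf.

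In Ptprd the cerebellum list had 163 sites and the cerebrum list 827, with 46 in common. Ptprs held 20 and 27, with 9 in both, and Ptprf held 12 and 26, with 9 in both. Every member thus had more sites in the cerebrum, as had the series as a whole, and most of the sites of the family were those of Ptprd. The DRACH sites were far fewer, with 35 in the cerebellum and 111 in the cerebrum for Ptprd, 9 and 15 for Ptprs, and 6 and 12 for Ptprf. DRACH sites made up 25.6% (50 of 195) of the sites of the family in the cerebellum and 15.7% (13.4 to 18.2) in the cerebrum, beside 62.1% and 46.7% of all sites of each library. The low shares were those of Ptprd, at 21.5% and 13.4%. In Ptprs the shares were 45.0% and 55.6%, and in Ptprf 50.0% and 46.2%. In exons alone the DRACH share of the family was 55.7% (39 of 70) in the cerebellum and 56.0% (61 of 109) in the cerebrum. The exonic share over all genes was not computed per library. With the libraries pooled, exons of the family held 65 positions with the motif and 64 without it. Exons of all genes held 88202 and 67574.

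DRACH sites of the cerebellum were mostly found in the cerebrum as well. Of the 50 DRACH sites of the family in the cerebellum, 42 (84.0%, 71.5 to 91.7) were listed in the cerebrum too, beside 81.0% over all genes. In the other direction, 42 of the 138 DRACH sites of the cerebrum (30.4%, 23.4 to 38.6) were listed in the cerebellum, beside 45.3% over all genes. Inside exons the latter share was 57.4% (35 of 61, 44.9 to 69.0), beside 48.0% over all genes, and inside introns it was 9.09% (7 of 77), beside 13.4%. Over the family, the DRACH sites of the cerebrum that the cerebellum lacked were therefore mainly intronic, but this came from Ptprd, with 6 of 75 intronic ones shared. In Ptprs, 5 of 13 exonic and 1 of 2 intronic DRACH sites of the cerebrum were listed in the cerebellum. In Ptprf it was 6 of 12, all exonic. The sites that the cerebellum lacked in Ptprs and Ptprf were thus mainly exonic.

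Of the 146 DRACH sites of the family in either library, 30 lay in coding sequence, 26 in 3′ UTRs, 9 in exons of other isoforms and 81 in introns, and 0 lay in a 5′ UTR. Ptprd had 17 sites in coding sequence, 17 in the 3′ UTR, 4 in other exons and 78 in introns. Ptprs had 6 in coding sequence, 4 in the 3′ UTR, 5 in other exons and 3 in introns. Ptprf had 7 in coding sequence and 5 in the 3′ UTR, and 0 elsewhere. Of the exons of the 3 reference isoforms, 14 held a listed DRACH site, 5 of 36 in Ptprd, 5 of 33 in Ptprs and 4 of 33 in Ptprf. The share of such exons over all coding genes was not computed.

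**Figure D1:**
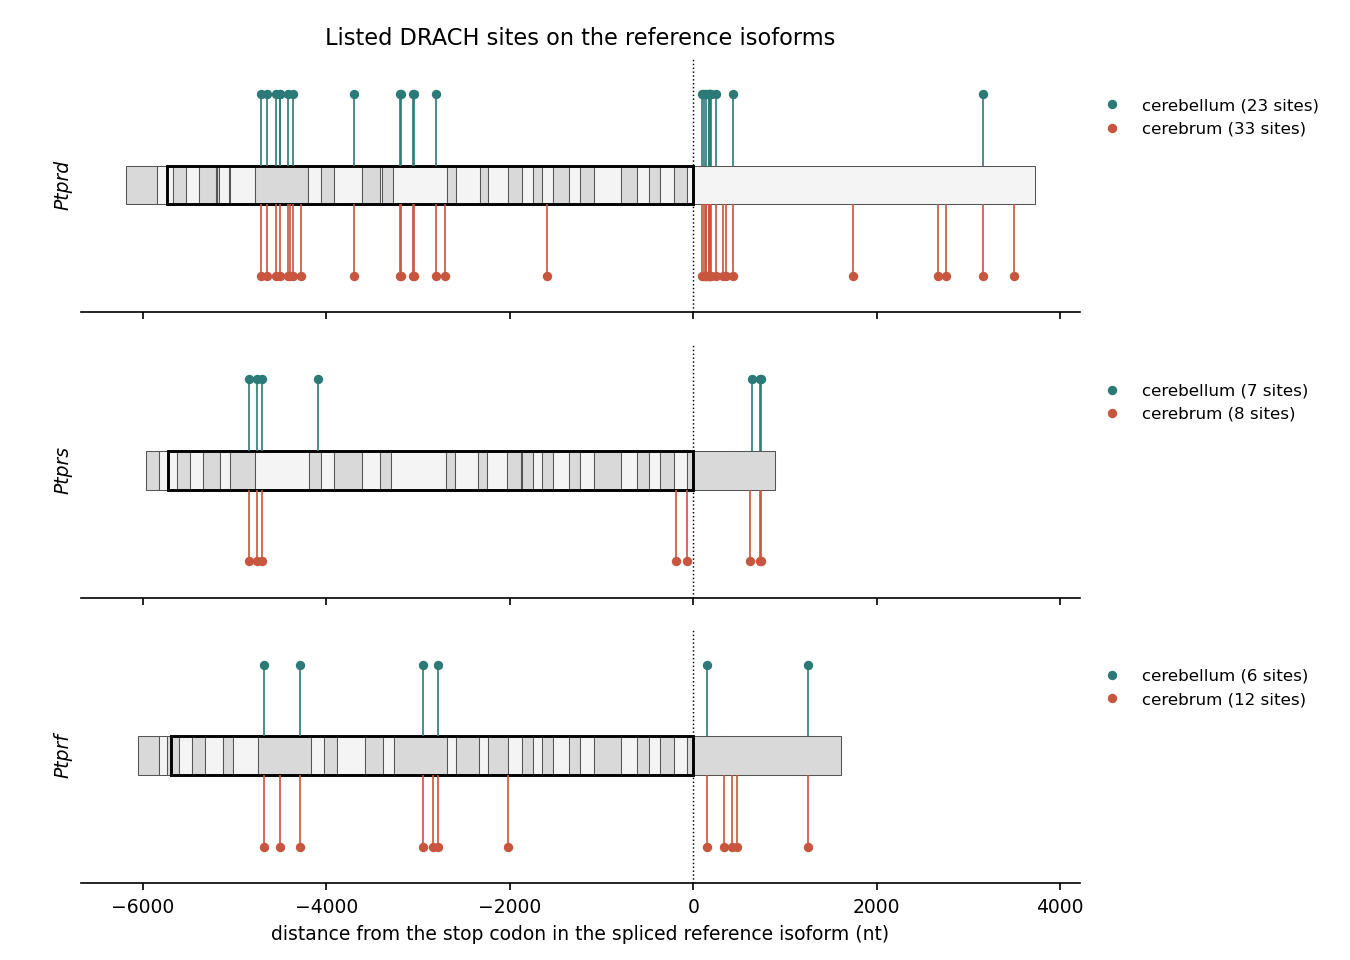
Listed DRACH sites on the spliced reference isoforms of Ptprd, Ptprs and Ptprf, by distance from the stop codon in nt (negative values lie in coding sequence or the 5′ UTR), with exons as boxes in alternating shades, the coding sequence outlined in black, and sites of the cerebellum above and of the cerebrum below each isoform. The sites form 2 clusters in the coding sequence of Ptprd, on the exons of 582 and 588 nt, and a further cluster within 432 nt after its stop codon.

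Ptprd carried its coding sites on its longest internal exons. Exon 11, of 582 nt, which encodes part of the fibronectin type III repeats, had 16 DRACH adenosines, of which the cerebellum list held 7, the cerebrum list 8 and both lists 6. Exon 18, of 588 nt, held 5 and 6 of its 9 DRACH adenosines. Outside these exons the coding sequence had 1 site in exon 14 (306 nt), listed in both libraries, and 1 in exon 26 (124 nt), listed in the cerebrum only. All 5 sites of exon 18 in the cerebellum were also listed in the cerebrum, and the sixth, 19 nt from a junction and in repeat-masked sequence, was listed in the cerebrum only.

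Ptprs and Ptprf each have exons that align with exons 11 and 18 of Ptprd, and these were listed at fewer of their DRACH adenosines. In Ptprs, exon 8 (582 nt, aligned with exon 11 of Ptprd) held 2 listed adenosines of 13, both in both libraries. Exon 14 of Ptprs (600 nt, aligned with exon 18 of Ptprd) had only 4 DRACH adenosines, and 0 of these were listed. In Ptprf, exon 9 (582 nt) held 2 of 10 in the cerebellum and 3 in the cerebrum, and exon 15 (579 nt) held 2 of 15 and 3. The remaining coding sites of Ptprs were 1 in exon 7 (270 nt) in both libraries, 1 in exon 9 (134 nt) in the cerebellum only and 2 in exon 32 (136 nt) in the cerebrum only. Ptprf had 1 more, in exon 19 (219 nt), in the cerebrum only.

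Over the family, the listed share of DRACH adenosines was highest in the longest internal coding exons. It was 0 of 20 in exons under 100 nt in both libraries. In exons of 100 nt to under 200 nt it was 0.562% (1 of 178) in the cerebellum and 1.69% (3 of 178) in the cerebrum, beside 0.262% and 0.646% over all coding genes with a DRACH site in that library. In exons of 200 nt to under 400 nt 2 and 3 of 75 were listed, beside 2.44% and 3.83%. In exons of 400 nt or more it was 26.9% (18 of 67, 17.7 to 38.5) and 32.8% (22 of 67, 22.8 to 44.7), beside 15.8% and 22.2%. In this longest class Ptprd had 48.0% (12 of 25) and 56.0% (14 of 25, 37.1 to 73.3), Ptprs 11.8% (2 of 17) in both libraries, and Ptprf 16.0% and 24.0% of 25. The intervals of Ptprd and Ptprf overlapped in both libraries, and those of Ptprd and Ptprs overlapped in the cerebellum.

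**Figure D2:**
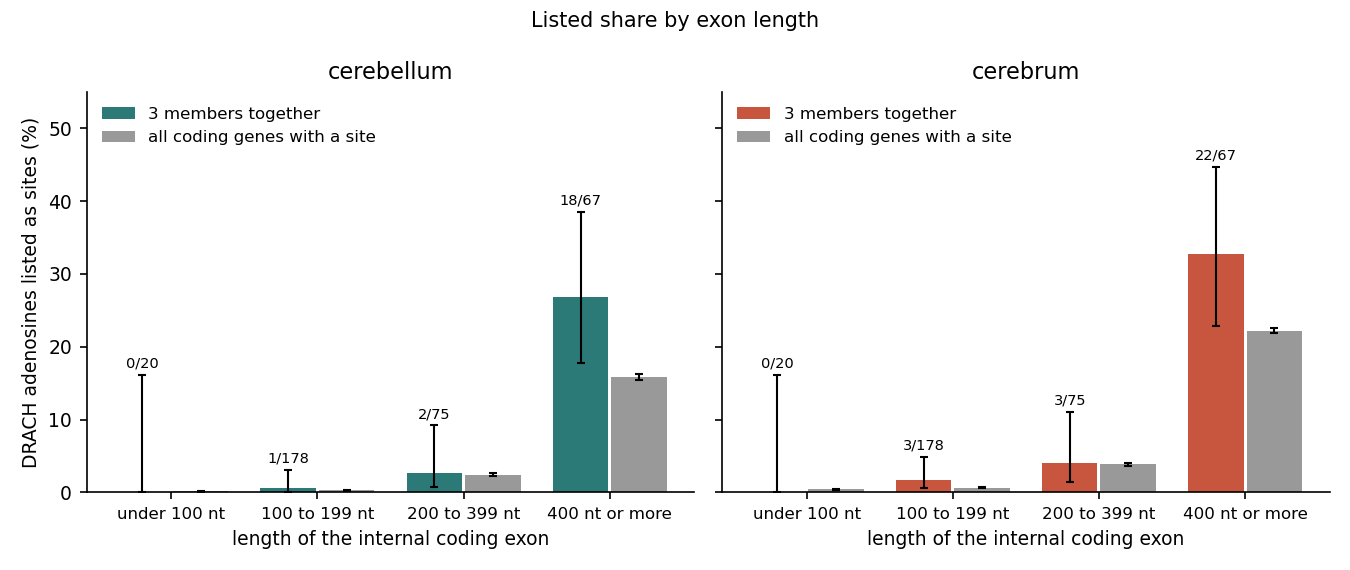
Share of DRACH adenosines listed as sites (percent, linear axis) by length of the internal coding exon, in the cerebellum and the cerebrum, for the 3 members together and for all coding genes with a site. Bars start at 0 and error bars are 95% Wilson intervals over adenosines; the family reaches 26.9% and 32.8% in exons of 400 nt or more and is far lower in shorter ones.

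The same pattern appeared as distance to a junction. Of the listed DRACH sites of the family, 27.8% (10 of 36) in the cerebellum and 28.3% (15 of 53) in the cerebrum lay within 100 nt of an exon junction, beside 64.7% and 66.1% of the DRACH adenosines that were not listed. Over all coding genes 7.04% of listed and 36.8% of unlisted adenosines of the cerebellum lay that close, as did 8.44% and 38.7% of those of the cerebrum. Because exon length and distance to a junction move together, the parts of each in the listing cannot be told apart here.

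Most 3′ UTR DRACH sites of Ptprd lay close behind its stop codon. In the first 500 nt after the stop codon 9 of 19 DRACH adenosines (47.4%) were listed in the cerebellum and 12 of 19 (63.2%) in the cerebrum. Over all coding genes with a site the shares there were 17.2% and 22.3%. In the rest of the 3′ UTR 1 of 59 (1.69%) and 5 of 59 (8.47%) were listed, beside 4.98% and 7.07%. The sites of Ptprd at 135, 170, 175 and 180 nt, listed in both libraries, lay in repeat-masked sequence. So did the site at 139 nt, listed in the cerebrum only. The 17 DRACH sites ran from 95 to 3495 nt after the stop codon with a gap of 1314 nt, from 432 to 1746 nt, that held 20 unlisted DRACH adenosines. The farthest one listed in both libraries, a GAACT, lay 3159 nt after the stop codon. Ptprs had no listed DRACH adenosine in its first 500 nt and 3 of 10 beyond it in each library, from 624 to 740 nt. Ptprf had 1 of 8 in the cerebellum and 4 of 8 in the cerebrum within 500 nt, and a last DRACH site at 1251 nt. Within 200 nt of the stop codon on either side the family had 8 of 34 (23.5%) and 11 of 34 (32.4%) listed, beside 14.8% and 19.7% over all coding genes.

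The 3′ UTR DRACH sites nearest to the stop codon that both libraries listed are printed next. They were picked by distance and not aligned between the genes, so the likeness of their sequences says nothing about the members. Capitals mark the 5-mer with the listed adenosine.
Ptprd, 95 nt after the stop codon, chr4:75944853-75944873, minus strand: gtccttctTAACTtctagcta
Ptprd, 122 nt, chr4:75944826-75944846, minus strand: acttagtgGGACTattacaaa
Ptprd, 135 nt, chr4:75944813-75944833, minus strand: attacaaaAAACAaacaaaaa
Ptprs, 732 nt, chr17:56412583-56412603, minus strand: aggacctgGGACTacgggaca
Ptprs, 740 nt, chr17:56412575-56412595, minus strand: ggactacgGGACActtggggg
Ptprf, 148 nt, chr4:118209663-118209683, minus strand: atttcgggGAACAttgccaca
Ptprf, 1251 nt, chr4:118208560-118208580, minus strand: agactactGGACTtgtatcca
The window 135 nt behind the stop codon of Ptprd stands in repeat-masked, A-rich sequence, where many adenosines lie side by side. The nearest DRACH site of Ptprf in both libraries after these 2 lay in coding sequence, a GGACA of exon 15. The windows of Ptprs overlap each other, and both of its adenosines were listed in both libraries.

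On the whole reference isoform, Ptprd had 11.3% (23 of 203, 7.67 to 16.4) of its DRACH adenosines listed in the cerebellum and 16.3% (33 of 203, 11.8 to 21.9) in the cerebrum. Ptprs had 5.38% (7 of 130) and 6.15% (8 of 130), and Ptprf 4.23% (6 of 142) and 8.45% (12 of 142). The background was 6.54% and 9.13% of the DRACH adenosines of all coding genes with at least 1 site in that library, and the family together had 7.58% (36 of 475, 5.52 to 10.3) and 11.2% (53 of 475, 8.63 to 14.3). Both of these intervals held the background. Of the coding genes with a site, 1286 of 7220 (17.8%) in the cerebellum and 1596 of 9320 (17.1%) in the cerebrum had a higher share than Ptprd, and the median gene had 4.65% and 6.76%. Ptprs and Ptprf lay near that median.

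By region, coding sequence of the family was listed at 6.14% (21 of 342) in the cerebellum and 8.19% (28 of 342) in the cerebrum, beside 5.64% and 8.03% over all genes. The 3′ UTRs were listed at 12.8% (15 of 117) and 21.4% (25 of 117, 14.9 to 29.6), beside 7.69% and 10.6%. None of the 16 DRACH adenosines of the 5′ UTRs was listed in either library, beside 3.59% and 5.08%. Ptprd and Ptprf reached 21.8% and 21.7% of their 3′ UTR DRACH adenosines in the cerebrum, and Ptprs 18.8% in both libraries.

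**Figure D3:**
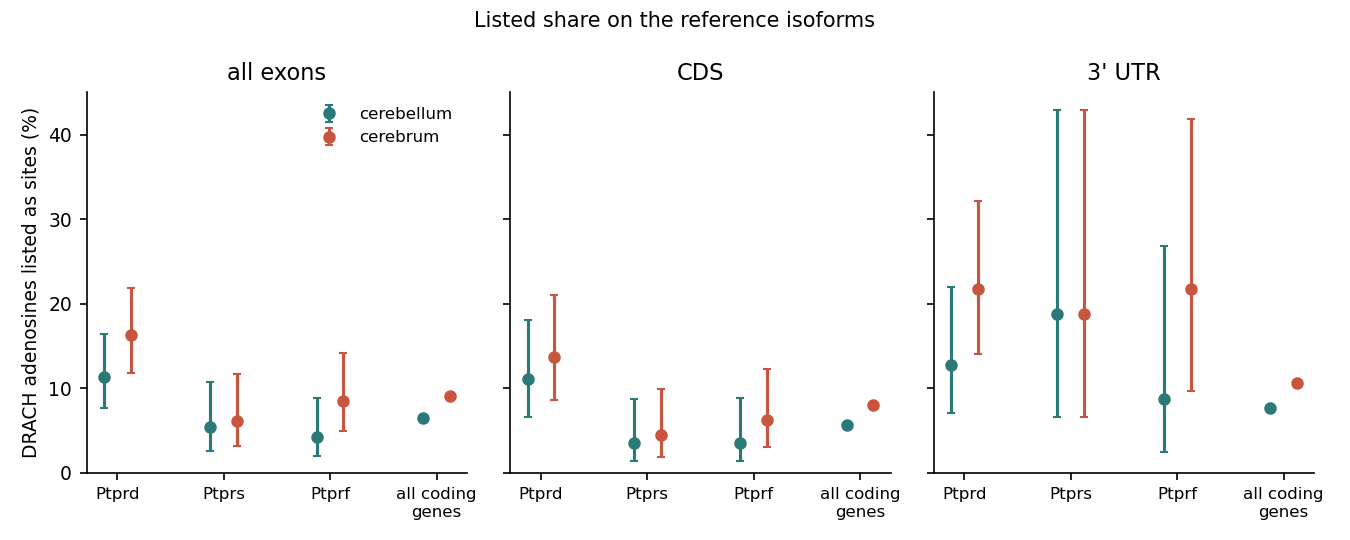
Share of DRACH adenosines listed as sites (percent, linear axis from 0) on the reference isoforms of Ptprd, Ptprs, Ptprf and all coding genes with a site, in all exons, coding sequence and 3′ UTR and in each library. Points are shares and error bars are 95% Wilson intervals over adenosines; Ptprd has the highest share over all exons, 11.3% in the cerebellum and 16.3% in the cerebrum.

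The 3 proteins were aligned to ask how often members were listed at the same codon. A DRACH adenosine stood at the same codon base in all 3 members at 20 positions. Of these, 18 were listed in none, 1 in 1 member and 1, the shared GGACT above, in all 3. At a further 56 positions 2 members had the DRACH adenosine, and 48 were listed in none, 8 in 1 member and 0 in both. At 169 positions only 1 member had it, and 18 of those were listed. Coding DRACH adenosines of the family were listed at 6.14% in the cerebellum and 8.19% in the cerebrum. Over all coding genes with a site these shares were 5.64% and 8.03%. With shares this low, the 0 of 56 does not show that members avoid the same codon, which was not tested.

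**Figure D4:**
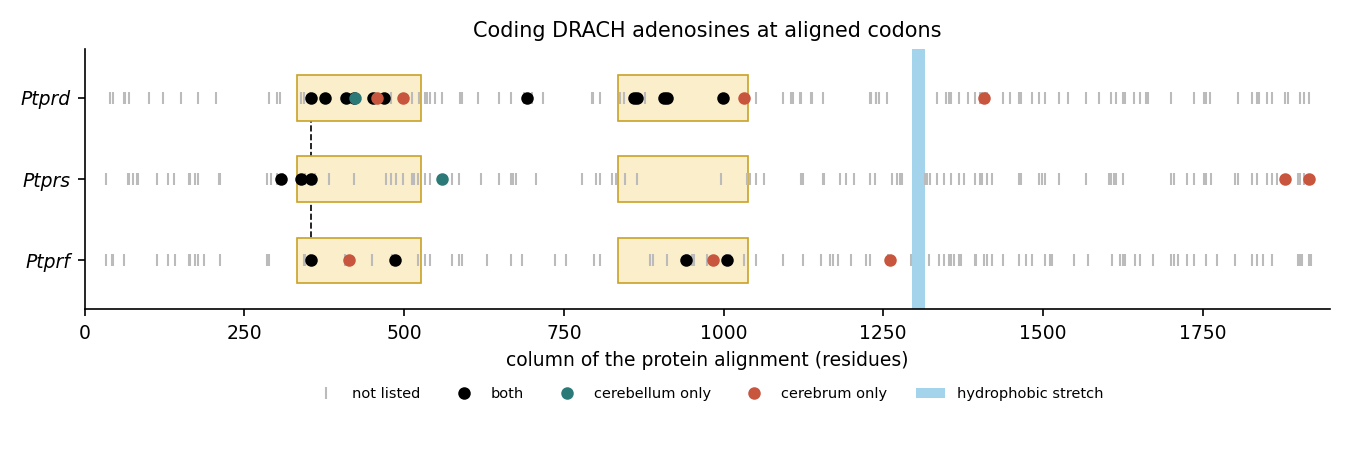
Coding DRACH adenosines of Ptprd, Ptprs and Ptprf by column of the protein alignment (residues), with listed adenosines as dots coloured by library, unlisted ones as grey ticks, the membrane-spanning stretch of Ptprd as a blue band and the position listed in all 3 as a dashed line. The long exons, drawn as boxes, align at columns 332 to 526 and 835 to 1038, where most coding sites lie, and column 355 is the only one listed in all 3.

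Coding sites lay almost all in the part that encodes the outside of the protein. A hydropathy scan placed the membrane-spanning stretch at residues 1267 to 1287 of Ptprd, 1258 to 1278 of Ptprs and 1255 to 1275 of Ptprf. Before it, 10.3% (21 of 203) of the DRACH adenosines of the family were listed in the cerebellum and 12.3% (25 of 203) in the cerebrum. After it, 0 of 137 (0 to 2.73%) and 3 of 137 (2.19%) were listed. The long exons lie before the stretch, and in exons under 400 nt the share was 2.21% (3 of 136) before it in both libraries, and 0 of 136 and 3 of 136 after it.

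The 5-mer GGACT was the most listed of the family. Of 30 exonic GGACT adenosines, 12 (40.0%, 24.6 to 57.7) were listed in the cerebellum and 13 (43.3%, 27.4 to 60.8) in the cerebrum, beside 16.4% and 23.5% over all coding genes. GGACA had 4 and 8 of 32 listed, beside 9.99% and 14.7%. TGACC, present 34 times, was listed 0 times, beside 1.17% and 1.86% over all coding genes. AGACA, present 35 times, was listed 0 times in the cerebellum and 1 time in the cerebrum, beside 4.68% and 6.80%. Counts this low were near those backgrounds.

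The introns of Ptprd held most of the sites of the family. They added up to 2250 kb and carried 113 (cerebellum) and 754 (cerebrum) sites, or 5.03 and 33.5 per 100 kb. Over the introns of all coding genes, here with or without a site, the rates were 1.35 and 4.63. No coding gene had more intronic sites in the cerebrum, and 11 had more in the cerebellum. Of 2230 coding genes with at least 100 kb of intron, 24 (1.08%) had a higher rate than Ptprd in the cerebrum and 135 (6.05%) in the cerebellum. Ptprs had 14.3 and 18.4 intronic sites per 100 kb (7 and 9 sites) and Ptprf 6.76 and 10.8 (5 and 8 sites), so on this scale Ptprd exceeded them in the cerebrum but not in the cerebellum.

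These intronic sites of Ptprd were mostly without the motif and mostly in 1 library. DRACH 5-mers made up 7.96% (9 of 113, 4.25 to 14.4) in the cerebellum and 9.95% (75 of 754, 8.01 to 12.3) in the cerebrum, beside 14.9% and 12.8% of the intronic sites of all coding genes. Of all 685013 adenosines in the introns of Ptprd, 6.49% stood in a DRACH 5-mer. Of the intronic sites without the motif, 4 were listed in both libraries, which was 3.85% of the 104 in the cerebellum and 0.589% of the 679 in the cerebrum, beside 6.51% and 1.85% over all genes. By contrast 6 of the 9 intronic DRACH sites of the cerebellum (66.7%, 35.4 to 87.9) were listed in the cerebrum too, beside 39.3% over all genes. In the other direction, 6 of the 75 intronic DRACH sites of the cerebrum were listed in the cerebellum, beside 13.4% over all genes. The contrast between intronic sites with and without the motif was thus also present over all genes. The region of 1760 kb before the first exon of Ptprd-206, which only other isoforms span, held 93 of the 113 and 638 of the 754 sites. That region also makes up most of the intron length of Ptprd, which is 2250 kb.

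**Figure D5:**
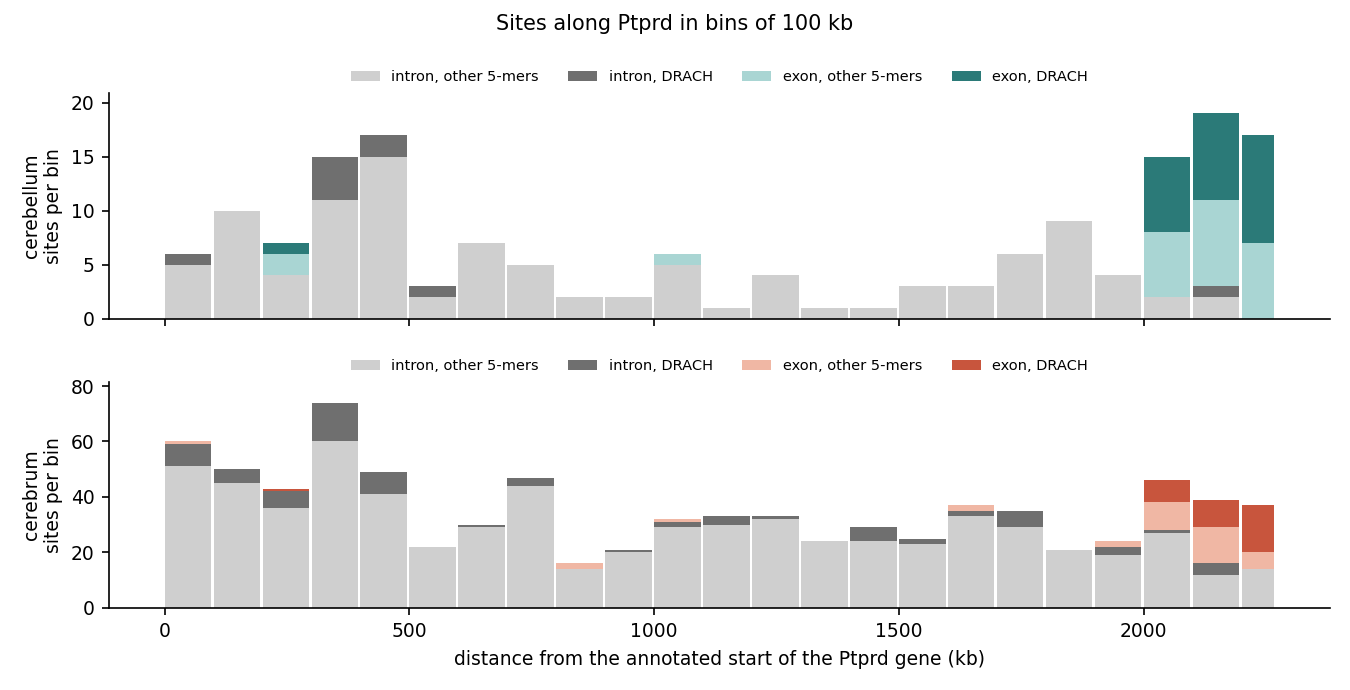
Sites along Ptprd in bins of 100 kb from the annotated start of the gene (kb), stacked by exon or intron and by DRACH or other 5-mer, cerebellum above and cerebrum below on separate linear axes from 0. Sites without the motif spread over the whole gene in the cerebrum, with 60 of them beside 14 intronic DRACH sites in the highest bin.

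The intronic DRACH sites of Ptprd that both libraries listed are shown because they are its intronic positions with the motif that were seen in more than 1 library. Capitals mark the 5-mer.
Ptprd, chr4:78123586-78123606, minus strand: ttccttaaTAACTcttgatat
Ptprd, chr4:77900737-77900757, minus strand: gctactttGGACTttgtaaga
Ptprd, chr4:77864766-77864786, minus strand: tccattcaGGACTgtactcct
Ptprd, chr4:77864717-77864737, minus strand: tacataagGAACTctgtcttt
Ptprd, chr4:77777790-77777810, minus strand: tattgtttGGACAgcttattt
Ptprd, chr4:76100215-76100235, minus strand: ttttaaagGGACActttgctc
The first of these lies in repeat-masked sequence, and the GGACT at 77864776 and the GAACT at 77864727 are neighbours. The last lies in intron 14 of Ptprd-206, of 0.841 kb, which had 1 site in the cerebellum and 3 in the cerebrum, all DRACH. Ptprs had 1 such site, at chr17:56441359-56441379, and Ptprf had 0.

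Exons of isoforms other than the reference held further sites. In Ptprd, the transcript Ptprd-214 keeps intron 18 between exons 18 and 19 as a single exon of 1139 nt, and 2 DRACH sites in that intron, a TAACT at 76085932 and an AGACT at 76085849, were listed in both libraries. In Ptprs, a terminal exon of 1623 nt of the retained-intron transcript Ptprs-215 held 7 sites, of which 5 were DRACH and listed in the cerebrum only. Both exons are longer than any internal exon of the reference isoforms, whose longest were 588 nt in Ptprd, 600 nt in Ptprs and 582 nt in Ptprf.

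At the edges of the gene intervals, the nearest listed positions inside and outside the rule were as follows. Around Ptprd a site lay 206 nt inside and one 1101 nt outside the downstream end, and one 354 nt inside and one 346 nt outside the upstream end. None of these 4 had a DRACH 5-mer, and none was listed in both libraries. For Ptprs and Ptprf the nearest outside sites lay in other genes, at 86512 nt or more and at 43758 nt or more. None of the sites of the members lay in an exon of another gene on that strand.

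Most genes on the lists of partners had listed sites, though direct binding of each gene to a member was not checked. Of 20 extracellular partners, 17 had an exonic DRACH site in the cerebellum and 18 in the cerebrum, where 34.9% and 45.0% of all 20701 coding genes had one. The median listed share over the genes of this list with a site was 14.2% and 16.4%, beside 4.65% and 6.76% for the median coding gene with a site. Slitrk5 had 43 and 59 of 106 DRACH adenosines listed (40.6% and 55.7%), Slitrk1 had 40 and 48 of 110 (36.4% and 43.6%), and the receptor kinase gene Ntrk3 had 34 and 53 of 421 (8.08% and 12.6%). Lrfn2 had 0 in both, and Lrfn3 had 12 in the cerebellum and 0 in the cerebrum.

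The medians of the cytoplasmic partners and of the other receptor phosphatases were lower than that of the extracellular partners. Of 18 genes on the cytoplasmic list, 16 had a site in each library, with medians of 9.13% and 10.1%. The guanine nucleotide exchange factor gene Trio had 25 and 34 of 241 listed, the active zone gene Erc1 had 28 and 35 of 174, and the kinase gene Abl1 had 20 and 36 of 122. Of 18 other receptor-type tyrosine phosphatase genes, 12 had a site in the cerebellum and 14 in the cerebrum, with a median of 3.23% in the cerebrum, below the shares of Ptprd, Ptprs and Ptprf there. In that list Ptprz1, a phosphatase of radial glia and oligodendrocyte precursors, stood out with 53 of 176 (30.1%) in each library, followed by Ptpro with 14 and 25 of 123 and Ptprj with 8 and 14 of 155. Since the lists were chosen with earlier results of these data known, their counts are a description.

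The coding genes most like each member were found from 9 shares of its exonic DRACH sites (both libraries, cerebellum only or cerebrum only, each by 5′ UTR, coding sequence and 3′ UTR), as a Euclidean distance over the 2 libraries. Nearest to Ptprd, among 1030 genes with at least 20 sites, were Dlgap4 (0.0419), Sez6 (0.0716) and Agap2 (0.0836), where the median distance was 0.369. Nearest to Ptprf were Pak7 (0.0741), Synrg (0.0775) and Snrk (0.0999), and nearest to Ptprs were Usp6nl (0.0991), Ncan (0.0996) and, next, Kidins220. With 10 exonic DRACH sites in Ptprs and 12 in Ptprf, 1 site moves a share of theirs by much more than one of the 34 sites of Ptprd.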

How the data were processed

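The authors deposited, for each library, a list of positions with strand and no header, in a unit of its own (called sites, other than counts or rates). Per the methods of the study, GLORI reads were mapped to mm10 and to a PWK version of it, sites were called with GLORI-tools 1.0, the site sets of both genomes were merged, and a site was kept where it had more than 8 reads and a rate over 0.1. A merged list can hold positions whose reference base is not A, as at 5 sites of Ptprd. Here sites were placed on GENCODE M21 genes of GRCm38, whose coordinates are those of mm10, with Python 3.11.15, numpy 2.4.6, pandas 2.3.3 and pysam 0.24.0. Each gene had as its reference isoform its longest complete coding isoform. A listed share is the number of listed DRACH adenosines divided by all DRACH adenosines of the same exons, and the background is all coding genes with at least 1 such site in the library. Proteins were translated from the reference and aligned with mafft 7.526. Repeats are the soft-masked bases of the reference. The placement was tested on simulated data: 2015 of 2015 simulated positions were recovered, and 473 of 500 simulated Wilson intervals held the true share.

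The members, the lists of partners, phosphatases and markers, and the rules for named sites and genes were chosen with earlier results of these data known. Named were, per member, the 3 DRACH sites of both libraries nearest to the stop codon, the first and last in the exon with most sites, those at aligned codons of 2 or more members, those in 5′ UTRs and intronic ones of both libraries. In the lists of partners and phosphatases the 3 genes with most DRACH sites were named, and Lrfn2, Lrfn3 and the named marker genes were picked after their values were seen. With 1 library per tissue and no depth, no test was run. The alternatives tried were another motif (RRACH), sites of both libraries only, no repeats, another isoform, another background, other windows and tolerances and, added after seeing the data, exonic sites only, the family without Ptprd and introns without RefSeq exons. The values of some marker genes are not reported here.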

Additional observations from a re-analysis of the deposited data

How the results depend on the processing

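The files hold no depth, so a site missing from the smaller cerebellum list cannot be read as unmethylated. Of 60 values under alternatives, 42 stayed inside the interval of the reported value or, for plain counts, near it. Some of the 42 could not move, namely those with the APPRIS isoform and those without sites in exons of another gene. The DRACH share of 25.6% in the cerebellum became 65.6% with sites of both libraries only, beside 82.7% of all sites listed in both libraries. In alternatives added after seeing the data, it became 55.7% in exons only and 46.9% without Ptprd. That of 15.7% in the cerebrum became 12.3% with RRACH, 65.6% with sites of both libraries only, 56.0% in exons only and 50.9% without Ptprd. The share of DRACH sites found in the other library, 84.0% in the cerebellum and 30.4% in the cerebrum, became 32.8% and 7.27% with all 5-mers, and the latter 57.4% in exons only and 44.4% without Ptprd. With sites of both libraries only, coding sequence held 45.2% in place of 20.5% of the DRACH sites, 3′ UTRs 33.3% in place of 17.8% and introns 16.7% in place of 55.5%. Without Ptprd, the listed share of exonic DRACH adenosines was 4.78% in place of 7.58% in the cerebellum and 7.35% in place of 11.2% in the cerebrum, so the family lay above the 6.54% and 9.13% of all coding genes with Ptprd and below them without it. Against coding genes with at least 5 sites, the background was 10.3% and 12.8%, above the family. Of listed sites in the cerebellum, 44.4% lay within 200 nt of a junction, against 27.8% within 100 nt. The DRACH share of intronic sites in the cerebrum was 7.26% with RRACH in place of 9.99%. The APPRIS principal isoform was the reference isoform in all 3 members, and no member site lay in an exon of another gene on that strand. No paired analysis was possible because each tissue had 1 library.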

Other observations

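Of 49 exonic positions of Ptprd without the DRACH motif, 6 (12.2%, 5.73 to 24.2) stood in GGATT, a 5-mer picked after its count was seen, and 4 of these were listed in both libraries. GGATT made up 2.89% of the exonic sites without the motif of the whole series. In the introns of Ptprd, 1 of 779 sites without the motif stood in GGATT (0.128%), beside 0.318% of such intronic sites of the series. On the strand opposite to the members, 0 sites were listed within their intervals in either library.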
